A study of Mus musculus with 11 samples.

Results

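The genes described here carry the transforming growth factor β (TGF-β) signal from ligand to transcription, namely the ligand gene Tgfb1, the receptor genes Tgfbr1 and Tgfbr2, the receptor-activated Smad2 and Smad3, their shared partner Smad4, the inhibitors Smad7, Ski and Skil, and the target gene Tgfbi. They were chosen by name for their place in the pathway, by a rule that used no measured value but with earlier results of these data known. All 10 were among the 14604 genes of the deposited table and all 10 passed the filter on low values. RNA was sequenced from regulatory T cells (Tregs) that had been sorted from tumors or spleens of mice implanted with MC38 cells, a colon adenocarcinoma line grown in syngeneic hosts. There were 3 wild-type spleen, 3 knockout spleen, 3 wild-type tumor and 2 knockout tumor libraries. The labels give the wild-type mice as CD177flox/flox and the knockout mice as CD177flox/flox/FOXP3-CreYFP, so both genotypes carried floxed CD177 alleles and both bore MC38 tumors. In the knockout the recombinase is driven from Foxp3, and the deletion is therefore meant for Tregs. Cd177 was not analysed here, so the genotype labels were not checked against the deleted gene. The MC38 hosts that the methods describe were male C57BL/6 mice aged 6-8 weeks, but whether this covers the floxed mice is not stated, nor whether a library held cells of 1 mouse or of several. The spleens came from the tumor-bearing mice themselves, and the sort took live CD4+GITR+CD25+ cells from both tissues.

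TGF-β is a secreted cytokine that is held in a latent complex until it is released. The active ligand joins TGFBR2, the type II receptor, to TGFBR1, the type I receptor, which then phosphorylates SMAD2 and SMAD3, and these enter the nucleus with SMAD4 to bind DNA. SMAD7 blocks the type I receptor, SKI and SKIL (SnoN) repress transcription at SMAD-bound genes, and TGFBI is a secreted matrix protein that TGF-β induces in many cell types. In the T-cell lineage the pathway can induce Foxp3, and Tregs can themselves release active TGF-β from the latent complex they carry on GARP.

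Each value is a log2(n + 1) of the deposited table, where n is the expression value that the authors derived from estimated counts and aggregated by gene. The sources used here do not state how n was scaled between libraries. It summed to 712832-844331 in the spleen and to 1103159-1304548 in the tumor libraries, so the totals of the tissues did not overlap. Differences are tumor minus spleen on this log2 scale unless another is named. They were tested with limma across the 13897 genes that passed the filter, and a gene was called when its Benjamini-Hochberg adjusted p lay below 0.05. The tissue difference was broad, with 78.9% of all tested genes called, 43.1% higher and 35.9% lower in tumor, and a median difference of 0.08. For 63.5% of the tested genes the range of the tumor libraries lay wholly outside that of the spleen libraries.

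The sorted cells were checked against marker genes. The tumor libraries held more RNA of myeloid and fibroblast marker genes than the spleen libraries did. The summed n of 18 myeloid genes was 455-940 in spleen and 19822-26953 in tumor, and all 18 rose. The 6 fibroblast genes with values summed to 7.96-19.7 in spleen and to 1032-2353 in tumor, and all 6 rose. Col1a1, Col1a2, Col3a1 and Pdgfrb lay near 0 in spleen, with a mean n of 0.617, 0.704, 0.206 and 0.0872. Of 11 T-cell lineage genes 9 fell and none rose, with sums of 2074-2234 in spleen and 1109-1833 in tumor. Of 5 Treg genes Tnfrsf18 and Ctla4 rose, Foxp3 and Ikzf2 fell, and Il2ra differed by -0.27 without passing the test. Foxp3 differed by -1.23 in wild type and by -0.30, without a call, in knockout mice. The sums over the Treg genes overlapped, at 690-863 in spleen and 648-1150 in tumor. Of 9 genes of CD8 T and NK cells 6 rose and 1 fell, with sums of 41.4-83.8 and 136-480. Of 10 platelet and erythroid genes 8 fell and 1 rose, with a median difference of -1.77, although their sums overlapped at 98.2-569 in spleen and 256-625 in tumor. Of 7 B-cell genes 3 fell and 1 rose, with sums of 18.7-64.7 and 15.9-28.2. Of the 3 tumor epithelial genes tested 1 rose and 1 fell, and the 4 with values summed to 9.11-15.2 and 17.7-30.4. No gene of these lists was at 0 in every library. These markers moved with every tumor-against-spleen difference given here, and their part in those differences was not tested. In such bulk RNA, fewer cells of a type and less RNA per cell cannot be told apart.

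**Figure D1:**
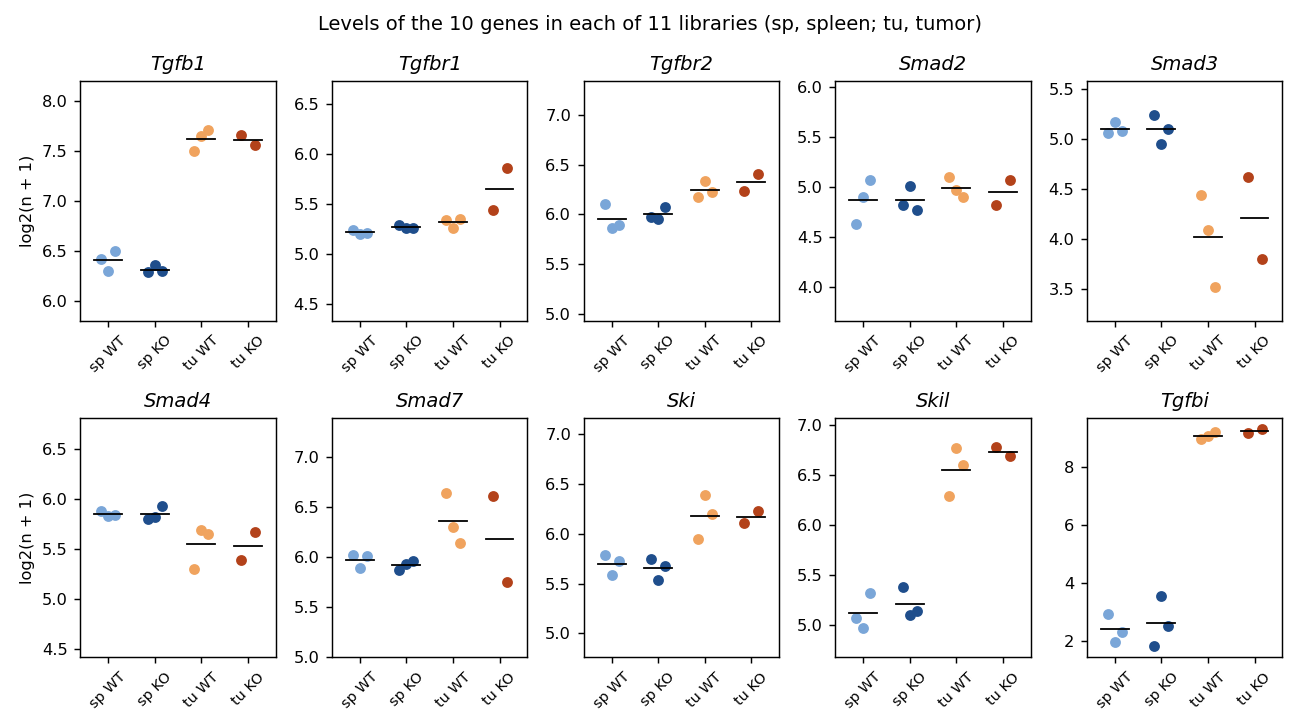
Level of each of the 10 genes in each of the 11 libraries, as log2(n + 1), with 1 panel per gene and 1 point per library, coloured by tissue and genotype. The tumor points of Tgfbi lie between 8.95 and 9.31, far above the spleen points, and those of Smad3 lie below all spleen points and are widely spread.

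DNA upstream of 3 of these genes is shown because they span the responses described below, Tgfbi with the largest rise, Tgfb1 as the ligand and Smad3 with the largest fall. The windows are from RefSeq on GRCm38.p6, which held one for 6 of the 10 genes and none for Smad2, Smad4, Smad7 or Skil. They were searched on both strands for the SMAD-binding element CAGAC, which reads GTCTG on the other strand, and for the palindrome GTCTAGAC. Capitals mark the element. The Tgfbi window is chr13:56609336-56609522 on the plus strand, the Tgfb1 window chr7:25686752-25687001 on the plus strand and the Smad3 window chr9:63757995-63758244 on the minus strand, each printed 5′ to 3′ in the direction of the gene and up to its annotated start.
Tgfbi: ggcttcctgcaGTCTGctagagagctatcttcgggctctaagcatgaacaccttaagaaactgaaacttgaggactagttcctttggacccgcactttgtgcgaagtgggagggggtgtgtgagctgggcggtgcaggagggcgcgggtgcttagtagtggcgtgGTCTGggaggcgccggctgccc
Tgfb1: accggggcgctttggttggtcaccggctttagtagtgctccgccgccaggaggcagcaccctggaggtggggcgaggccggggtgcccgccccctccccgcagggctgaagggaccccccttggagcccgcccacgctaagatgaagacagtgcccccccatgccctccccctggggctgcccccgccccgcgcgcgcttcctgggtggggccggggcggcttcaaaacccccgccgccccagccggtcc
Smad3: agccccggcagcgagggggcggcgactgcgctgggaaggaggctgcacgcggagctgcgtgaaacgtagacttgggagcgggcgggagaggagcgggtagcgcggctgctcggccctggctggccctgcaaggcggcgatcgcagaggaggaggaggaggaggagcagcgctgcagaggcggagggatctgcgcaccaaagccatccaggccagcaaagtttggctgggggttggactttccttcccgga
The Tgfbi window held 2 elements, at -239 and -85 from the RefSeq start. Of 32851 windows of 250 bases, over 27025 genes, 42.2% held at least 1 element and 11.7% held 2 or more, so a count of 2 is not rare. The Tgfbr2 window held 1 element, at -160, the second of the 2 windows of Tgfbr1 held 1, at -203, and the windows of Tgfb1, Smad3 and Ski held none. None of the 6 genes' windows held the palindrome, which was in 0.167% of all windows. A match is a description of letters and not a binding site, and no match says only that these letters are not in the window.

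Between tumor and spleen, 8 of the 10 genes were called, 6 higher and 2 lower in tumor, beside 78.9% of all tested genes. A share this near the background is not a result about the pathway. For 7 of the 10 the tumor and spleen ranges did not overlap, beside 63.5% of all genes. The median difference of the 10 genes was 0.32, against 0.08 over all tested genes. In the deposited values the direction followed no single role in the pathway. The ligand, the receptor gene Tgfbr2, the inhibitors and the target gene were called higher in tumor. Of the genes that carry the signal into the nucleus, Smad3 and Smad4 were called lower, and Smad2 was not called, nor was the receptor gene Tgfbr1. The directions of Tgfbr2, Smad4, Smad7 and Ski turned under other scalings of the libraries, as given below.

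**Figure D2:**
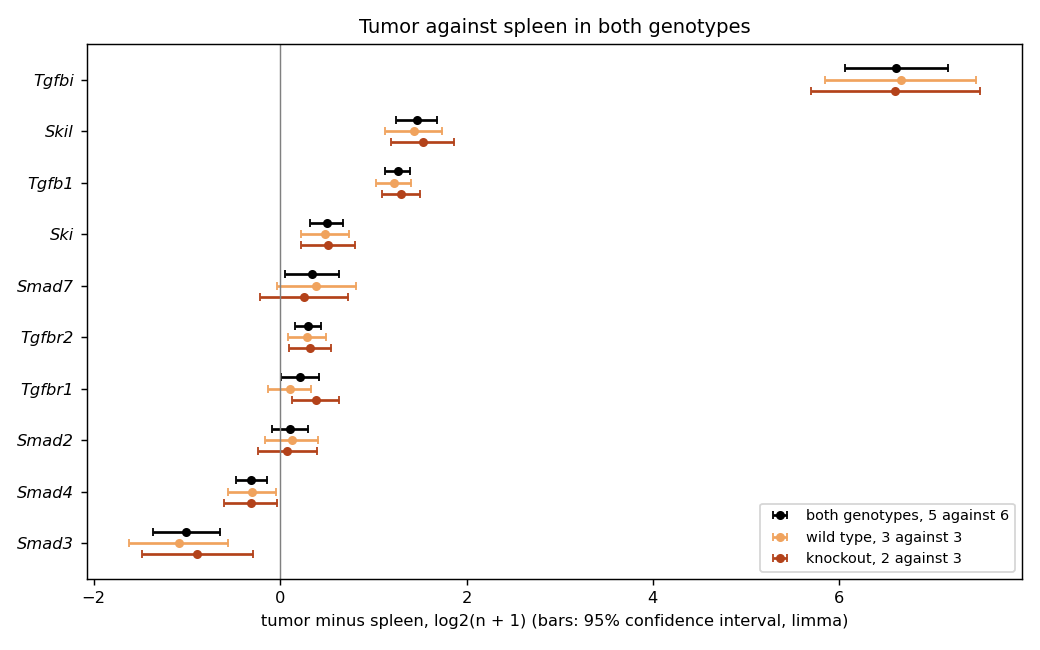
Tumor-minus-spleen difference of each of the 10 genes in log2(n + 1), with its 95% confidence interval from limma, over all libraries and within each genotype. The intervals of Tgfbr1 in wild type and of Smad7 and Smad2 within each genotype cross 0, as does that of Smad2 over all libraries, Smad3 and Smad4 lie below 0, and Tgfbi lies far to the right of the others.

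Tgfb1, which encodes the ligand TGF-β1, lies on chromosome 7 from 25687002 to 25705077 on the plus strand. Its level was 6.42, 6.29 and 6.50 in the wild-type and 6.29, 6.35 and 6.30 in the knockout spleen libraries. It was 7.50, 7.65 and 7.71 in the wild-type and 7.66 and 7.56 in the knockout tumor libraries. Every tumor library lay above every spleen library, and within a tissue the libraries were close together, with means of 6.36 ± 0.085 (SD, n = 6 spleen libraries) and 7.62 ± 0.086 (SD, n = 5 tumor libraries). The difference was 1.26 (SE 0.060, 95% interval 1.13 to 1.39, limma adjusted p = 1.00e-09), and mean n was 2.41-fold higher in tumor. The exact two-sided permutation test over the 11 libraries gave p = 0.00433, the smallest it can give with 6 libraries against 5. The rise was 1.22 in wild-type and 1.30 in knockout mice. In size it stood at rank 2187 of the 13897 genes.

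The receptor genes differed far less between the tissues. Tgfbr2, the type II receptor that binds the ligand first, lies on chromosome 9 from 116084293 to 116175360 on the minus strand. Its level was 6.11, 5.86 and 5.90 in the wild-type and 5.97, 5.95 and 6.08 in the knockout spleen libraries, and it was 6.17, 6.33 and 6.23 in the wild-type and 6.23 and 6.41 in the knockout tumor libraries. All 5 tumor libraries lay above all 6 spleen libraries, but the lowest tumor library, at 6.17, was close to the highest spleen library, at 6.11. Tgfbr2 rose by 0.30 (SE 0.064, 95% interval 0.16 to 0.44, limma adjusted p = 0.000932), a 1.23-fold higher mean n. The difference was 0.29 in wild type (limma adjusted p = 0.0164) and 0.32 in knockout (limma adjusted p = 0.0181). The wild-type call was lost, at 0.24 to 0.26, without spleen wild-type replicate 2 or 3 or tumor wild-type replicate 2, and the knockout call, at 0.23 to 0.31, without spleen knockout replicate 1 or 2 or tumor knockout replicate 2. The rise also depended on the scaling, for it was not called after median centring and turned to -0.092 under quantile normalization. At equal library totals the difference was -0.32 and called lower (limma adjusted p = 0.00743).

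Tgfbr1, the type I receptor kinase that phosphorylates SMAD2 and SMAD3, lies on chromosome 4 from 47353222 to 47414931 on the plus strand. Its level was 5.23, 5.20 and 5.21 in the wild-type and 5.29, 5.25 and 5.26 in the knockout spleen libraries. It was 5.34, 5.25 and 5.35 in the wild-type and 5.44 and 5.86 in the knockout tumor libraries. The spleen libraries were nearly level and 4 of the 5 tumor libraries lay above all of them, whereas tumor wild-type replicate 2 fell among them. The difference was 0.21 (95% interval 0.0043 to 0.41) and did not pass the test (limma adjusted p = 0.0576), while the exact two-sided permutation test of this gene alone gave p = 0.0130. The call was gained, at 0.23 and 0.26, without tumor wild-type replicate 1 or replicate 2 and, at 0.23, with genotype in the model. Without tumor knockout replicate 2, the library highest in Tgfbr1, the difference was 0.11. At equal library totals the difference was -0.40 and called lower (limma adjusted p = 0.00368). After centring each library on the T-cell lineage genes it was 0.96 and called higher (limma adjusted p = 9.63e-05). Within each library Tgfbr1 minus Tgfbr2, a measure in which a factor common to the library cancels, was -0.74 ± 0.086 (SD, n = 6 spleen libraries) and -0.82 ± 0.19 (SD, n = 5 tumor libraries), and the difference did not pass the exact permutation test (p = 0.351, also after Benjamini-Hochberg adjustment over the 4 pairs compared).

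Smad2 and Smad3 encode the receptor-activated SMADs of this branch, and their values behaved differently. Smad2 lies on chromosome 18 from 76241580 to 76310963 on the plus strand. Its level was 4.63, 4.90 and 5.07 in the wild-type and 4.82, 5.01 and 4.77 in the knockout spleen libraries, and it was 5.10, 4.97 and 4.90 in the wild-type and 4.82 and 5.07 in the knockout tumor libraries. The tissues overlapped over most of their range. The difference was 0.10 (SE 0.087, 95% interval -0.085 to 0.29) and did not pass the test (limma adjusted p = 0.285). The interval allows a fall as well as a rise of up to 0.29. The direction depended on the scaling. At equal library totals the difference was -0.50 and called lower (limma adjusted p = 0.000292). After centring each library on the T-cell lineage genes it was 0.85 and called higher (limma adjusted p = 9.95e-05).

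Smad3 lies on chromosome 9 from 63646767 to 63757994 on the minus strand. Its level was 5.06, 5.17 and 5.09 in the wild-type and 5.25, 4.95 and 5.10 in the knockout spleen libraries. It was 4.44, 4.09 and 3.52 in the wild-type and 4.62 and 3.80 in the knockout tumor libraries. All 5 tumor libraries lay below all 6 spleen libraries, and their SD of 0.45 was larger than that of 0.10 in spleen. Smad3 fell by 1.01 (SE 0.17, 95% interval -1.37 to -0.65, limma adjusted p = 9.33e-05), and mean n in tumor was 0.501 times that in spleen. The difference was -1.09 in wild type (limma adjusted p = 0.00197) and -0.89 in knockout (limma adjusted p = 0.0132), the latter lost without tumor knockout replicate 2, at -0.48.

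A factor common to a library cancels in the difference of 2 genes. Smad3 minus Smad2 within a library went from 0.24 ± 0.21 (SD, n = 6 spleen libraries) to -0.88 ± 0.48 (SD, n = 5 tumor libraries). The libraries did not overlap, and the change of -1.11 had p = 0.00433 in the exact permutation test and 0.00577 after adjustment over the 4 pairs. Here and for the pairs below, 0.00433 is the smallest p this test can give with 6 libraries against 5. How often other pairs of genes reach it was not computed. The T-cell lineage genes fell in the same libraries by a median of -0.68. When each library was centred on those 11 genes, the Smad3 difference was -0.26 and was no longer called (limma adjusted p = 0.107). Among the tumor libraries, wild-type replicate 1 and knockout replicate 1 had the highest summed n of T-cell lineage genes, at 1833 and 1597, and also the highest Smad3, at 4.44 and 4.62. The other three, at 1201, 1266 and 1109, had Smad3 values of 4.09, 3.52 and 3.80. With 5 libraries no correlation was computed, and the part of T-cell RNA in the Smad3 difference was not tested.

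Smad4, the common partner of the receptor-activated SMADs, lies on chromosome 18 from 73639009 to 73703780 on the minus strand. Its level was 5.88, 5.83 and 5.84 in the wild-type and 5.80, 5.82 and 5.92 in the knockout spleen libraries, and it was 5.30, 5.69 and 5.65 in the wild-type and 5.38 and 5.67 in the knockout tumor libraries. The spleen libraries were close together and all tumor libraries lay below them, the same tumor wild-type replicate 1 and knockout replicate 1 lowest. The difference was -0.31 (SE 0.078, 95% interval -0.48 to -0.14, limma adjusted p = 0.00267). Centring on the T-cell lineage genes turned it to 0.44, called higher (limma adjusted p = 0.0311). The difference was -0.30 in wild type (limma adjusted p = 0.0359) and -0.32 in knockout (limma adjusted p = 0.0485), and it shrank to -0.18 in wild type and to -0.17 in knockout, in both cases without a call, when replicate 1 of the tumor group concerned was left out. These calls lay near the threshold and were also lost without any 1 of the 3 wild-type spleen libraries in both genotypes and, in knockout, without any 1 of the 3 knockout spleen libraries or tumor wild-type replicate 3.

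**Figure D3:**
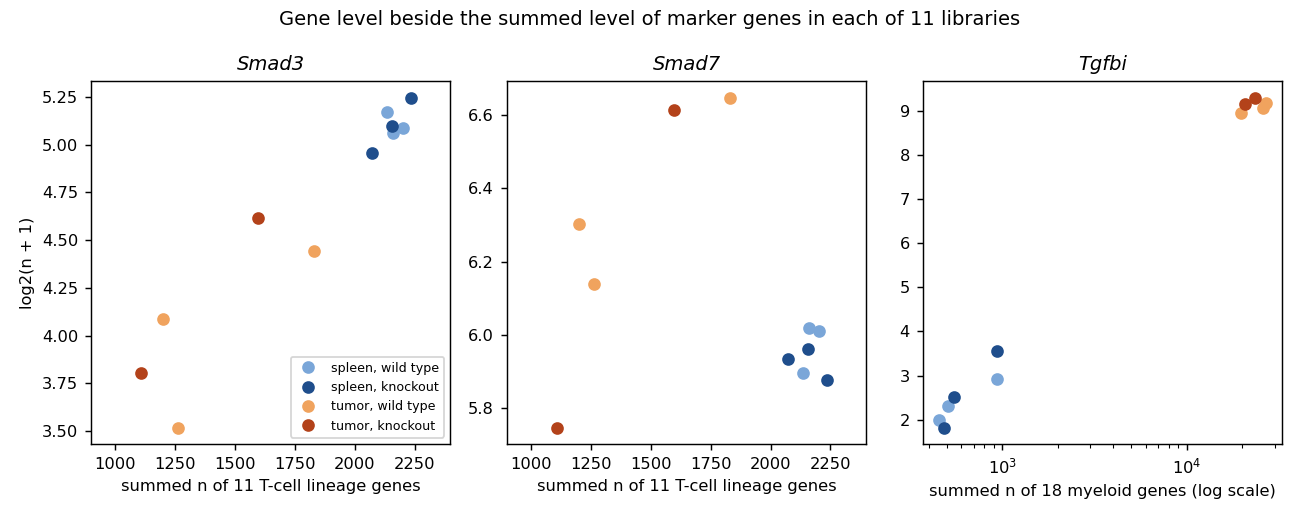
Smad3 and Smad7 against the summed n of 11 T-cell lineage genes, and Tgfbi against the summed n of 18 myeloid genes on a log axis, with 1 point per library and gene levels as log2(n + 1). The tumor libraries with sums of 1833 and 1597 are the highest tumor points for Smad3 and Smad7. The spleen libraries with myeloid sums of 940 and 933 are the highest spleen points for Tgfbi, whereas its highest tumor point has a myeloid sum of 23381. The lowest tumor point of Tgfbi has the lowest tumor myeloid sum, 19822.

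In the deposited values the inhibitors were called higher in tumor, Skil by far the most. Smad7, the inhibitory SMAD that acts on the type I receptor and is itself induced by the pathway, lies on chromosome 18 from 75367529 to 75395935 on the plus strand. Its level was 6.02, 5.90 and 6.01 in the wild-type and 5.88, 5.93 and 5.96 in the knockout spleen libraries. It was 6.65, 6.30 and 6.14 in the wild-type and 6.61 and 5.75 in the knockout tumor libraries. The tissues overlapped, for 4 tumor libraries lay above all spleen libraries and tumor knockout replicate 2 lay below all of them. The difference was 0.34 (SE 0.14, limma adjusted p = 0.0341), and the exact two-sided permutation test gave p = 0.0736. The call was fragile. It was lost on leaving out any of 7 of the 11 libraries, namely spleen wild-type replicate 2, the 3 spleen knockout libraries, tumor wild-type replicates 1 and 2 and tumor knockout replicate 1, with an adjusted p of up to 0.0924 and a difference down to 0.25. Without tumor knockout replicate 2 the difference was 0.48 (limma adjusted p = 0.000686). Smad7 turned to -0.049 under quantile normalization and to -0.28 at equal totals, in neither case with a call. In wild type the difference was 0.39, called only when tumor knockout replicate 1 or 2 was left out of the shared estimate of spread or when the fit held the wild-type libraries alone, apart from the T-cell lineage centring at 1.09. In knockout it was 0.26 and not called, and it was -0.18 without tumor knockout replicate 1 and 0.69, then called, without replicate 2. Smad7 was again highest in the tumor libraries with the most T-cell lineage RNA, wild-type replicate 1 and knockout replicate 1. In those same libraries Smad4, at 5.30 and 5.38, and Ski, at 5.95 and 6.11, were at their lowest among the tumor libraries. The part of T-cell RNA in these values was not tested. Smad7 minus Smad3 within a library rose from 0.85 ± 0.14 (SD, n = 6) to 2.20 ± 0.27 (SD, n = 5), without overlap, with p = 0.00433 in the exact permutation test and 0.00577 after adjustment over the 4 pairs.

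Ski, a nuclear co-repressor that binds SMADs, lies on chromosome 4 from 155154075 to 155222592 on the minus strand. Its level was 5.79, 5.59 and 5.72 in the wild-type and 5.75, 5.53 and 5.67 in the knockout spleen libraries, and it was 5.95, 6.39 and 6.20 in the wild-type and 6.11 and 6.23 in the knockout tumor libraries. No tumor library overlapped the spleen range. Ski rose by 0.50 (SE 0.079, 95% interval 0.33 to 0.67, limma adjusted p = 7.13e-05), a 1.42-fold higher mean n. At equal library totals its difference was -0.12 and was not called (limma adjusted p = 0.297). Quantile normalization gave 0.14, also not called (limma adjusted p = 0.0760). The sign for Ski turned only at equal totals, so its direction still depended on the scaling of n.

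Skil, the paralog of Ski and a target of the pathway it represses, lies on chromosome 3 from 31095058 to 31122577 on the plus strand. Its level was 5.07, 4.97 and 5.32 in the wild-type and 5.38, 5.10 and 5.14 in the knockout spleen libraries. It was 6.29, 6.77 and 6.60 in the wild-type and 6.78 and 6.69 in the knockout tumor libraries. Every tumor library lay above every spleen library, with a gap of 0.91 between the ranges. Skil rose by 1.46 (SE 0.10, 95% interval 1.25 to 1.68, limma adjusted p = 2.65e-08), a 2.81-fold higher mean n, at rank 1804 of all tested genes. The rise was 1.43 in wild-type and 1.53 in knockout mice, and it was called under all 23 alternatives. Skil minus Ski within a library changed sign, from -0.51 ± 0.14 (SD, n = 6 spleen libraries) to 0.45 ± 0.13 (SD, n = 5 tumor libraries), with p = 0.00433 in the exact permutation test and 0.00577 after adjustment over the 4 pairs. Skil therefore rose more than Ski in the same libraries whatever factor scales each library.

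Tgfbi, the matrix protein gene used here as the pathway's target, lies on chromosome 13 from 56609523 to 56639562 on the plus strand. Its level was 2.92, 1.99 and 2.32 in the wild-type and 1.82, 3.57 and 2.51 in the knockout spleen libraries. It was 8.95, 9.06 and 9.19 in the wild-type and 9.16 and 9.31 in the knockout tumor libraries. No other gene of the 10 separated the tissues as widely, and its spleen levels were scattered (SD 0.64) while its tumor levels were close together (SD 0.13). Tgfbi rose by 6.61 (SE 0.25, 95% interval 6.06 to 7.16, limma adjusted p = 1.66e-10), mean n was 107-fold higher, and the rise stood at rank 23 of all tested genes. Myeloid cells and fibroblasts are known to express Tgfbi. The 18 myeloid genes rose by a median of 5.002 and the 6 fibroblast genes by 6.02 in the same libraries, and their part in the rise was not tested. Among the spleen libraries, knockout replicate 2 and wild-type replicate 1 had the highest myeloid sums, at 933 and 940 against 455-548 in the others. They also had the highest Tgfbi, at 3.57 and 2.92 against 1.82 to 2.51. The tumor libraries did not follow that order throughout. The lowest tumor sum, 19822 in wild-type replicate 1, went with the lowest tumor Tgfbi, 8.95. The highest myeloid sums, 26953 and 25991 in wild-type replicates 3 and 2, went with Tgfbi at 9.19 and 9.06. The highest Tgfbi, 9.31 in knockout replicate 2, went with a sum of 23381.

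**Figure D4:**
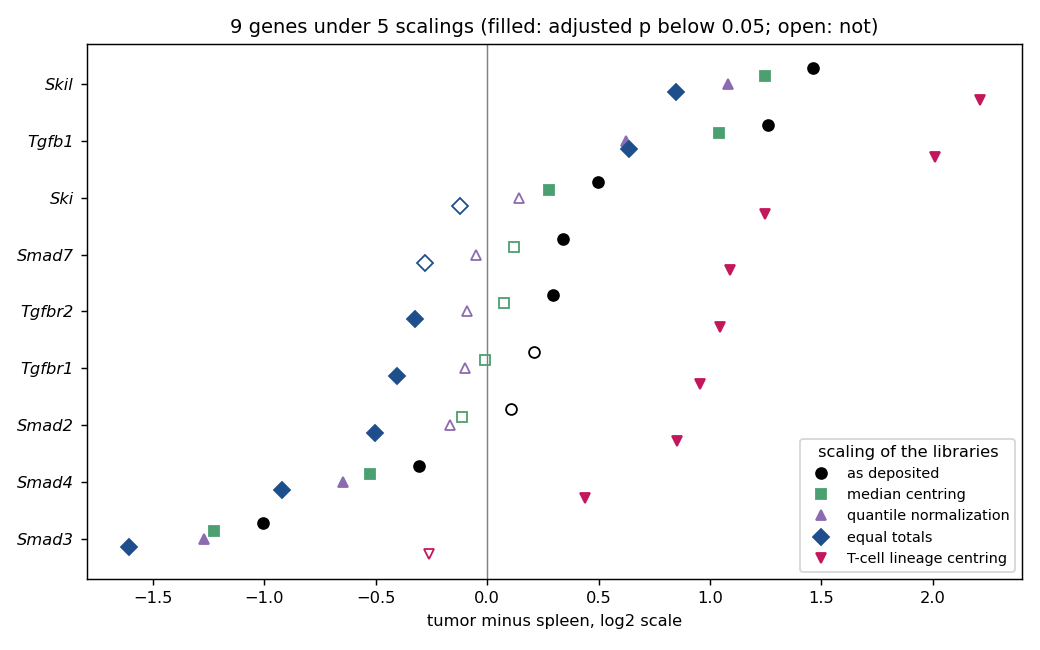
Tumor-minus-spleen difference in log2 units of 9 of the 10 genes, without Tgfbi, under 5 scalings, the deposited values, quantile normalization, median centring, equal library totals and centring on 11 T-cell lineage genes. Tgfb1 and Skil stay above 0 under all 5, Smad3 stays below 0, and the other 6 genes lie on either side of 0 depending on the scaling.

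The sign of the difference changed with the scaling for 6 of the 10 genes. For Ski and Smad7 no difference of the turned sign was called. The median difference of all tested genes was 0.08 in the deposited values, -0.16 after quantile normalization, -0.14 after median centring of the libraries, -0.44 at equal library totals and 0.83 after centring on the T-cell lineage genes. The members called higher and lower were 6 and 2 as deposited, 3 and 2, 4 and 2, 3 and 5, and 9 and 0 in that order. Of all 13897 tested genes, 5983 were called higher and 4988 lower as deposited. The other scalings gave 4623 and 6359, 4831 and 6219, 3286 and 7819, and 9401 and 1367 in the same order. The counts of members thus shifted along with those of all genes. Tgfb1, Skil and Tgfbi were called higher under every one of these scalings. Smad3 was lower under each, and called in all but the T-cell lineage centring.

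The same comparison was made within each genotype, in a fit of all 11 libraries with 4 group means. In wild-type mice 7 of the 10 genes were called, 5 higher and 2 lower, beside 70.5% of all tested genes, 39.2% higher and 31.3% lower. In knockout mice 8 were called, 6 higher and 2 lower, beside 65.7% of all tested genes, 36.2% higher and 29.5% lower. Tgfbr1 was the gene that differed in its call. Its difference was 0.10 in wild type (limma adjusted p = 0.393) and 0.38 in knockout (limma adjusted p = 0.0133), the latter reduced to 0.17 and not called without tumor knockout replicate 2. The difference between the genotypes was itself 0.28 (95% interval -0.061 to 0.62) and did not pass the test, with an unadjusted p from limma of 0.0982.

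None of the 10 genes was called in the interaction of tissue and genotype, where limma called 0.0% of all genes, 383 of them had an unadjusted p below 0.05, and no member had an unadjusted p below 0.05. None was called between knockout and wild type in spleen, again beside 0.0% of all genes called by limma, with 281 genes and no member at an unadjusted p below 0.05. In tumor, none was called beside 0.0072% of all genes, which is 1 gene. There, 634 of the 13897 tested genes and 1 member, Tgfbr1, had an unadjusted p from limma below 0.05. Tgfbr1 in the tumor was 5.44 and 5.86 in the knockout and 5.34, 5.25 and 5.35 in the wild-type libraries, a difference of 0.33 (95% interval 0.079 to 0.59, unadjusted p from limma of 0.0150, adjusted p = 0.9997). These libraries did not overlap, and knockout replicate 2 stood the further from the wild type. In the same comparison 3 of the 5 Treg genes had an unadjusted p from limma below 0.05 and none was called. Foxp3 was higher by 0.83, Il2ra by 0.56 and Ikzf2 by 0.63 in the knockout tumor libraries. Of the 9 genes of CD8 T and NK cells, 4 had an unadjusted p from limma below 0.05 and none was called. The median difference of the 9 was -0.92, with sums of 356-480 in wild-type and 136-283 in knockout tumor libraries. The part of either marker list in the Tgfbr1 difference was not tested.

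The intervals show how large a genotype effect these libraries could have missed. For knockout minus wild type in spleen, the interval was narrowest for Tgfb1, at -0.28 to 0.093, and widest for Tgfbi, at -0.59 to 1.03. In tumor, Smad3 had an interval of -0.40 to 0.79 and Smad7 one of -0.66 to 0.29. For the interaction, the interval of Skil was -0.36 to 0.55 and that of Tgfbi -1.27 to 1.16. With 3 spleen libraries against 3, an exact permutation test of a single gene cannot go below p = 0.1.

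The wider pathway was described by a list of 54 other genes, of which 52 were in the table and 50 passed the filter. Of those 50, 41 were called, 32 higher and 9 lower, with a median difference of 0.80. Beside this stand 78.9% of all genes called, 43.1% higher and 35.9% lower, and a median of 0.08. For 37 of the 50 the tissue ranges did not overlap, beside 63.5% of all genes. None was called in the interaction or between the genotypes. Within wild type the call differed from that over both genotypes for Tgif2, which was not called, and within knockout for Lrrc32, Smurf1, Id3 and Rgs16, which were not called, and for Itgb8, Itgae and Tgfbr3, which were. Tgif2 and Rgs16, a regulator of G-protein signalling, are named here after their values were seen.

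Among 12 further ligands, latency proteins and activators, 8 rose and 2 fell, beside 43.1% higher and 35.9% lower of all genes. Tgfb3, another ligand, was between 0.66 and 1.28 in spleen and between 3.02 and 4.03 in tumor, a rise of 2.64. Furin, the convertase that cleaves the TGF-β precursor, rose by 2.69, and Itgav, the αv chain of the integrins that release the ligand, rose by 1.73. The partner chain Itgb8 had a difference of 0.16 and was not called (limma adjusted p = 0.412), nor was Tgfb2, at -0.14 and a low level in both tissues. Lrrc32, which encodes GARP, the anchor of latent TGF-β on Tregs, was 5.90, 6.09 and 5.84 in the wild-type and 6.02, 6.07 and 5.74 in the knockout spleen libraries, and it was 5.50, 4.98 and 5.21 in the wild-type and 5.99 and 5.32 in the knockout tumor libraries. Lrrc32 overlapped between the tissues only through tumor knockout replicate 1, and it differed by -0.54 (SE 0.15, limma adjusted p = 0.00449), turning to 0.21 when centred on the T-cell lineage genes. Itgb8 differed by -0.13 in wild type and by 0.58 in knockout, where it was called (limma adjusted p = 0.0417), and the interaction had an unadjusted p from limma of 0.0389 and an adjusted p of 0.9997. Lrrc32 differed by -0.71 in wild type and by -0.28, without a call, in knockout. The other gene of this group that fell was Ltbp1, a latency protein, named after its value of -1.56 had been seen.

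Of 9 co-receptors and receptors of the wider family 6 rose and none fell over both genotypes, beside 43.1% higher and 35.9% lower of all genes. Eng, the endoglin co-receptor known from endothelial cells, rose by 3.25 and Acvrl1, the type I receptor it works with, by 2.49. Tgfbr3, the betaglycan co-receptor, differed by -0.32 and was not called (limma adjusted p = 0.0904). It was called lower, at -0.44 and -0.40, without tumor wild-type replicate 2 or replicate 3, at -0.55, -0.54 and -0.89 under quantile normalization, median centring and equal totals, and at -0.69 in knockout (limma adjusted p = 0.0174). It differed by -0.064 in wild type and by -0.18, not called, without tumor knockout replicate 1, and it turned to 0.42 after T-cell lineage centring. Of 6 SMADs of the bone morphogenetic protein (BMP) branch and co-factors 2 rose and 3 fell, beside 43.1% higher and 35.9% lower of all genes. Smad1, a receptor-activated SMAD of that branch, rose by 0.61, but by 0.035 and without a call at equal totals. The 3 that fell, named after their values were seen, were Trim33, which ubiquitinates SMAD4, at -0.56, and the acetyltransferases Ep300, at -0.39, and Crebbp, at -0.66.

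Of 11 further inhibitors and feedback genes 7 rose and 3 fell, beside 43.1% higher and 35.9% lower of all genes. Pmepa1, a feedback inhibitor induced by the pathway, went from 3.17 ± 0.44 (SD, n = 6) to 5.21 ± 0.080 (SD, n = 5), a rise of 2.04. Tgif1, a co-repressor of SMADs, rose by 1.53. Of the ubiquitin ligases that act on the receptors and SMADs, Smurf2 differed by -0.95 (limma adjusted p = 3.58e-07) and Smurf1 by 0.34 (limma adjusted p = 0.0474). Smurf2 differed by -0.20, and was not called (limma adjusted p = 0.214), after T-cell lineage centring. The call of Smurf1 was lost on leaving out any library other than tumor wild-type replicate 1 or tumor knockout replicate 1, with a difference of 0.22 without tumor wild-type replicate 2, and its direction turned at equal totals, at -0.25. Ldlrad4, a membrane protein that limits SMAD activation, fell by 0.74 and stood at 0.0053 after T-cell lineage centring. The remaining gene that fell, named after its value was seen, was Tgif2, at -0.57. Smad6, the inhibitory SMAD of the BMP branch, was not analysed here.

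Of 12 further target genes 9 rose and 1 fell, beside 43.1% higher and 35.9% lower of all genes. Ccn2, a matrix-associated growth factor, rose by 2.47 and Id2, an inhibitor of helix-loop-helix factors, by 2.18. The related Id3 was the gene that fell, by 0.70 (SE 0.16, limma adjusted p = 0.00111), and it stood at 0.049 after centring on the T-cell lineage genes and, uncalled, at -0.52 within knockout. Itgae, which encodes the CD103 integrin chain that TGF-β induces in T cells, was 3.63, 3.89 and 4.39 in the wild-type and 4.03, 3.66 and 3.30 in the knockout spleen libraries, and it was 4.83, 2.66 and 4.02 in the wild-type and 5.63 and 4.51 in the knockout tumor libraries. The tumor libraries of Itgae lay both above and below the spleen range, and the difference of 0.51 was not called (limma adjusted p = 0.260), although without tumor wild-type replicate 2, its lowest library, the difference was 0.93 and called (limma adjusted p = 0.00919). Itgae differed by -0.13 in wild type and by 1.41 in knockout, where it was called (limma adjusted p = 0.0405), and the interaction had an unadjusted p from limma of 0.0593 and an adjusted p of 0.9997. The myeloid and fibroblast sums given above moved with all of these groups, and their part in them was not tested.

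**Figure D5:**
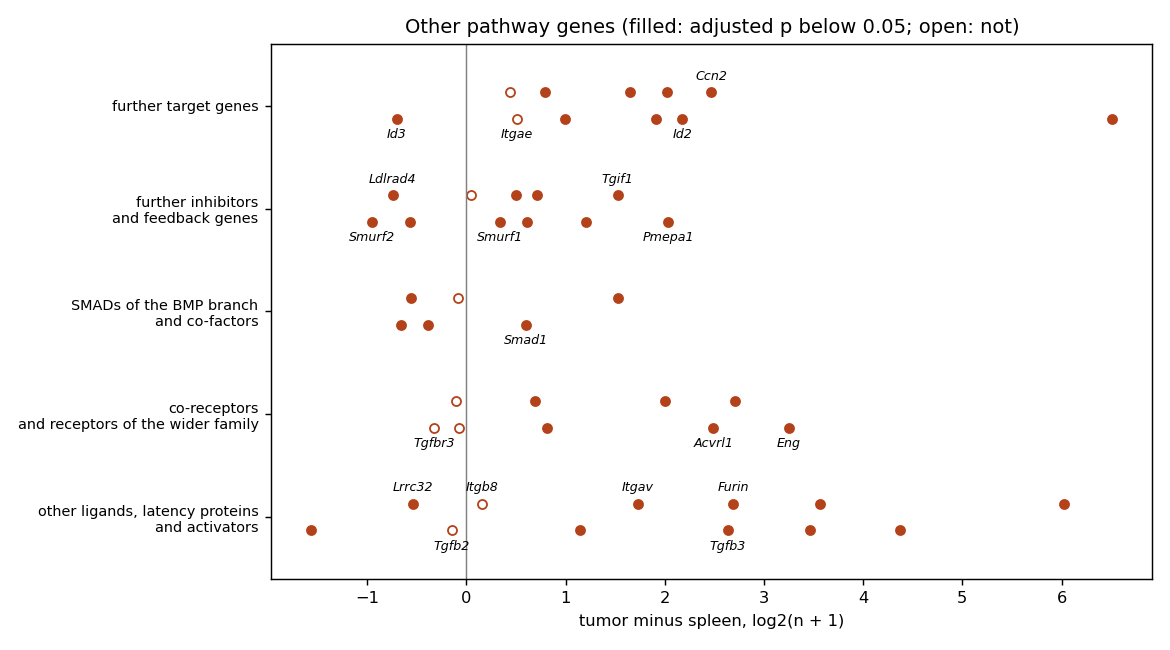
Tumor-minus-spleen difference in log2(n + 1) of the other pathway genes that passed the filter, 1 gene left out of the plot, grouped by role, with called and uncalled genes marked. Over all 50 genes, 32 were called higher and 9 lower, and the group of BMP-branch SMADs and co-factors has the lowest median, at -0.23.

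The genes whose levels followed those of the ligand, the type II receptor and the target most closely were sought by Pearson's r of log2(n + 1) over the 11 libraries, given here as a description. All these values share the split between tissues, which alone makes r high. For Tgfb1 they were Adam8 at 0.998, Litaf at 0.997 and Fnip2 at 0.996, and 3817 genes had an r above 0.9. For Tgfbi they were Ifi30 at 0.999 and Csf2ra and Olfm1, both at 0.998, among 3757 genes above 0.9. For Tgfbr2, which differed little between the tissues, they were Abcc3 at 0.976, Gm7694 at 0.972 and Xylt1 at 0.963, among 621.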

How the data were processed

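The 11 libraries of sorted Treg RNA were assigned to tissue and genotype from the labels. After depletion of ribosomal RNA and single-end sequencing, the authors pseudoaligned the reads with kallisto, aggregated estimated counts by gene and deposited log2(n + 1) values for 14604 genes, without a pooled column. The submitters' processing notes name mm10 and sleuth 0.30.0. The sources used here give neither the kallisto version, the annotation release nor the scaling of n. An approximate depth is stated for all libraries alike, but since n cannot be related to it, the reads behind a value are unknown and no counting interval was given.

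Genes with a mean of at least 0.5 were kept (13897, removing 707). limma 3.58.1 in R 4.3.3 (lmFit, eBayes with a trend) compared 5 tumor with 6 spleen libraries, and a fit with 4 group means gave the within-genotype, interaction and genotype contrasts. A gene was called at a Benjamini-Hochberg adjusted p under 0.05 over all tested genes. Single values used exact two-sided permutation tests (scipy 1.17.1, Python 3.11.15). Nothing says that libraries of a group came from separate mice, so p-values measure the spread between libraries. Fits were tested on simulated data. Fold changes on the log2(n + 1) scale understate those of low genes.

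The 10 genes, the pathway and marker lists and the genes to be named were chosen with earlier results of these data known. Named were all 10 genes, 21 pathway genes and the 3 genes most like Tgfb1, Tgfbr2 and Tgfbi by r, except 1 pathway gene whose values are not reported here. Gene positions are from GENCODE M21 (GRCm38), where no exon of the 10 genes overlapped another gene, and promoter windows from RefSeq (GRCm38.p6), printed up to the annotated gene start. Alternatives were 4 scalings, pseudocounts of 0.1 and 5, no filter and a filter at 2, no variance trend, Bonferroni correction, a replicate block, genotype as a covariate or only the libraries compared, and leaving out each library.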

Additional observations from a re-analysis of the deposited data

Results flagged for a closer look

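In 68 groups of 5 or 6 libraries the highest or lowest library was set against the rest by Dixon's test. Each group was a gene, or 1 of the 4 within-library pair differences, in 1 tissue, and the pair differences reuse values of genes also tested. In these groups 2 values stood apart where chance would give about 3.4. Smurf2 in tumor knockout replicate 2 was at 4.20, while the other 4 tumor libraries lay between 4.30 and 4.33. Id2 in the same library was at 8.06, against 8.27 to 8.32 in the others.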

How the results depend on the processing

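Counts of members called between tumor and spleen (8) stayed within 1.5 times except under quantile normalization (5) and Bonferroni correction (3). Of all 13897 tested genes, 10971 were called in the main fit, 10982 under quantile normalization and 5051 under Bonferroni correction. In wild type (7) and knockout (8) Bonferroni correction gave 3 and 3, and in knockout quantile normalization gave 5. Bonferroni correction called 2449 of all tested genes in wild type and 1857 in knockout. Quantile normalization called 9207 in knockout. Of the other pathway genes, 41 were called and 27 under Bonferroni correction. Leaving out 1 library gave 7 to 8 members, 5 to 8 in wild type, 6 to 8 in knockout and 40 to 42 pathway genes. No member was called in the interaction or the genotype comparisons under any alternative.

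The replicate numbers of tumor and spleen libraries were not used as pairs in the main fits. The sources do not say that a number marks a mouse. Deviations of same-numbered libraries from their group means correlated at -0.13, 0.0070 and -0.072 in wild type and at 0.019 and 0.038 in knockout. Such correlations cannot decide on pairing, because the groups held 2 or 3 libraries and the deviations of the 2 knockout tumor libraries mirror each other. With the number as a replicate block, 8 members were called over both genotypes, 5 in wild type and 5 in knockout. Of all 13897 tested genes, 10512, 9241 and 7752 were called in these 3 comparisons.

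Some directions turned with the scaling. Quantile normalization gave -0.10 for Tgfbr1, -0.092 for Tgfbr2, -0.17 for Smad2, -0.049 for Smad7 and -0.066 for Itgb8. Median centring gave -0.010 for Tgfbr1, -0.11 for Smad2 and -0.056 for Itgb8. Equal totals gave -0.40 for Tgfbr1, -0.32 for Tgfbr2, -0.50 for Smad2, -0.28 for Smad7, -0.12 for Ski, -0.42 for Itgb8, -0.25 for Smurf1 and -0.074 for Itgae. Centring on the T-cell lineage genes gave 0.44 for Smad4, 0.60 for Tgfb2, 0.21 for Lrrc32, 0.42 for Tgfbr3, 0.0053 for Ldlrad4 and 0.049 for Id3. In wild type, quantile normalization gave -0.20 for Tgfbr1, -0.097 for Tgfbr2, -0.16 for Smad2 and -0.011 for Smad7, median centring -0.13 for Tgfbr1 and -0.11 for Smad2, equal totals -0.49 for Tgfbr1, -0.32 for Tgfbr2, -0.47 for Smad2, -0.21 for Smad7 and -0.12 for Ski, and T-cell lineage centring 0.40 for Smad4. In knockout, quantile normalization gave -0.073 for Tgfbr2, -0.18 for Smad2 and -0.12 for Smad7, median centring -0.13 for Smad2, equal totals -0.24 for Tgfbr1, -0.31 for Tgfbr2, -0.54 for Smad2, -0.37 for Smad7 and -0.11 for Ski, and T-cell lineage centring 0.50 for Smad4. Leaving out 1 library, the knockout differences ran from -0.048 to 0.21 for Smad2 and from -0.18 to 0.69 for Smad7. Which scaling is right for these libraries was not tested. Where leaving out 1 library left 1 tumor knockout library, it was assumed to vary like the other groups.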
